A study of Homo sapiens with 4 samples.

Results

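To examine N6-methyladenosine (m6A) on the mRNAs of MYC and its partner network, the peaks of 10 genes were read from meRIP-seq of OE-19 cells. The genes were MYC, MYCN, MYCL, MAX, MXD1, MXD3, MXD4, MXI1, MNT and MGA, taken by name from the 20046 protein-coding genes of GENCODE version 44, and a peak was assigned to a gene when its summit lay in the gene body. By this rule 40 of 24607 peaks in m6A IP replicate 1 and 31 of 19318 peaks in m6A IP replicate 2 belonged to the 10 genes. In meRIP-seq, RNA fragments bound by an m6A antibody are sequenced, and places where they pile up over a background are called as peaks.

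OE-19 is an established cell line of adenocarcinoma of the esophagogastric junction, and the cells were grown in RPMI1640 with fetal bovine serum, with no other treatment named. The series held 4 samples, 2 anti-m6A IP replicates and 2 inputs without antibody; peaks were listed for each IP replicate on its own, and the inputs had no list that was analysed here. The labels describe UV-fixed, lysed cells, whereas the study's methods describe fragmented total RNA, and the study calls the replicates biological, without saying whether they were separate cultures. All samples came from the same cell line without a contrasting condition, so the comparisons below are between the replicates and with the peaks of all other genes, and no test between groups was possible. Of the cell type markers, 1 of 6 epithelial markers had an exonic peak in both lists, namely CDH1 with a fold enrichment of 4.47 and 3.85. Of 6 leukocyte, endothelial and fibroblast markers 0 had one in both lists, and COL1A1 had one in replicate 1 only, at 3.11. A peak needs both expression and m6A, so a marker with no peak, among them EPCAM, KRT8, KRT18, KRT19 and ERBB2, was not shown to be absent. Both counts were below the 33.4% of all protein-coding genes with an exonic peak in both lists, so the markers did not check the cell type.

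MYC is a transcription factor of the basic helix-loop-helix leucine zipper class that drives growth and proliferation genes, and it binds DNA only as a dimer with MAX. MYCN and MYCL are its paralogs. The MXD proteins, MXI1, MNT and MGA also pair with MAX and compete with MYC for it and for E-box DNA, mostly recruiting corepressors. MYC mRNA is short-lived, and m6A on mRNA is usually laid down in the sequence context DRACH (R stands for A or G, D for any base but C, H for any base but G), with GGAC as its most frequent core.

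The sequences below show the m6A core motif at the strongest peak found in both lists that held GGAC within 50 nt of its replicate 1 summit, for the members printed here. The capitals mark GGAC, except for exon 17 of MGA, which had no GGAC there and where they mark the DRACH match nearest to the summit. In MNT the marked GGAC is followed by G, so it is not a DRACH match. Sequences are of hg38, 5′ to 3′ on the strand of the gene. MXD3 had neither motif within 50 nt of its shared summit.
MYCL, 3′UTR, chr1:39896093-39896120, minus strand: ttaccccagctGGACtcggcagctccaa
MYCN, CDS, chr2:15942194-15942221, plus strand: cccccgggggaGGACatctggaagaagt
MAX, CDS, chr14:65076529-65076556, minus strand: gatgggggctcGGACtccagctcggagt
MXD1, 3′UTR, chr2:69940405-69940432, plus strand: tccacaatgcgGGACagcatcaaaagct
MXD4, 3′UTR, chr4:2249883-2249910, minus strand: ctgctctggtaGGACtgtcagacgcaca
MNT, 3′UTR, chr17:2386574-2386601, minus strand: cagtgcgatgtGGACgtcacgctccctg
MGA, CDS, chr15:41767144-41767171, plus strand: ttgggtcagttGGACacaaaatgaactt
MGA exon 17, CDS, chr15:41750309-41750336, plus strand: cagagttttgaAAACTgaatgtgattct

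These motif matches lay in coding sequence in MYCN, MAX and MGA and in the 3′UTR in MYCL, MXD1, MXD4 and MNT. A match describes the letters near a summit and does not place the modified base, since the peaks were 123 to 1600 bp wide.

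Of the 10 members, 9 had a summit in an exon in replicate 1, all 10 in replicate 2, and 9 in both lists; MXI1 was the exception. Over all protein-coding genes the shares were 42.4%, 34.1% and 33.4%. A peak can be called only where the gene is expressed, and expression was not measured here, so how far expression accounts for the difference was not tested. All 40 peaks of replicate 1 and 30 of the 31 of replicate 2 had exonic summits. The remaining peak lay in an intron of MGA (chr15:41628554-41628762) at 5.71-fold with 9 IP fragments over a background of 0.642.

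Fold enrichment was the value used to compare peaks. The authors' peak caller, MACS2, gave it at each summit as the ratio of the IP pile-up to the local background, with a pseudocount of 1 added to both. From each fold and its p-value the whole number of IP fragments and the background could be solved for 100% of the peaks in each list. The IP pile-up had been scaled by 0.83 in replicate 1 and by 0.932 in replicate 2, and exonic peaks had a median pile-up of 42 and 48 fragments over backgrounds of 5 and 8. The intervals given with pile-ups are 95% Poisson intervals, and these, like the Wilson intervals of shares, cover counting error only. The depth of each library is not given in the sources used here.

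The exonic peaks of the 10 genes had a median fold enrichment of 5.19 in replicate 1 (range 2.04 to 18.3) and 4.5 in replicate 2 (1.89 to 12.5), against 5.3 and 4.82 over all exonic peaks. Their median pile-up was 42 and 35 fragments. By the strongest exonic peak of each gene, MYCN (12.4 in replicate 1 and 12.5 in replicate 2), MYCL (13.9 and 10.7) and MGA (18.3 and 9.99) stood highest. The ranges of these 3 genes between the replicates overlapped, so they could not be put in order.

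Below them came MXD3 (6.86 and 7.04), MAX (8.26 and 6.72), MNT (7.03 and 6.54), MXD1 (9.38 and 4.23) and MXD4 (6.39 and 5.39). The ranges of MAX and MNT overlapped that of MXD3, that of MXD1 overlapped all 4 of the others and that of MYC, and that of MXD4 lay below those of MXD3 and MNT. The replicate 2 value of MAX came from a peak that also lies in exons of other genes; without it MAX had 8.26 and 4.45, a range that overlapped those of MXD3, MNT, MXD1, MXD4 and MYC. MYC had 4.38 and 4.56, in replicate 1 below every other member with a peak in both lists. In replicate 2 MYC stood above MXD1, and above MAX when that peak was left out. MXI1 had 4.37 in replicate 2 alone.

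**Figure D1:**
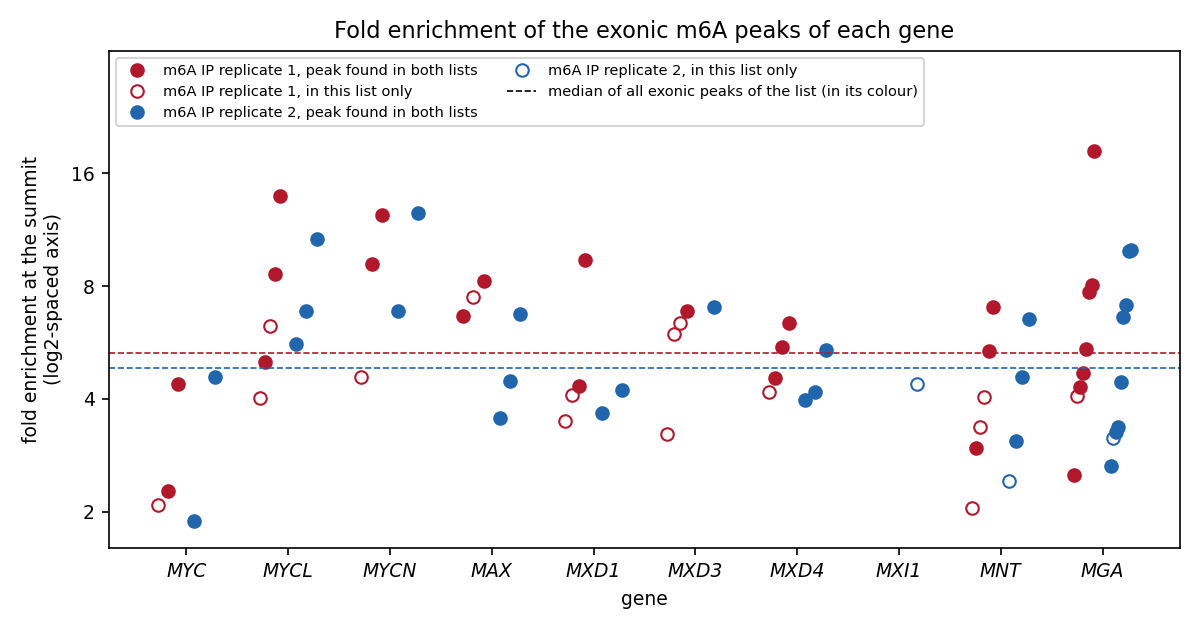
Fold enrichment at the summit (log2-spaced vertical axis) of every exonic peak of the 10 genes (horizontal axis), in replicate 1 (red) and replicate 2 (blue). Filled points are peaks that overlap a peak of the other list, open points are found in that list only, and dashed lines are the medians of all exonic peaks (5.3 and 4.82); the peaks of MYC lie at 1.89 to 4.56, below both medians.

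MYC (ENSG00000136997.22, chr8:127735434-127742951, plus strand, hg38) had its main m6A peak across the end of the coding sequence. Its mRNA has 3 exons and 3721 nt, with 454 codons and a 3′UTR of 1996 nt. In replicate 1 the peak covered chr8:127740412-127741188 in exon 3 and reached 4.38-fold. Its summit was in codon 447, −24 nt relative to the stop codon. In replicate 2 it covered chr8:127740512-127741182 and reached 4.56-fold, with the summit 22 nt into the 3′UTR. Both summits thus lay within 50 nt of the stop codon, on either side of it, and were 46 bp apart.

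The peak of MYC held 544 nt of coding sequence and 233 nt from the stop codon on in replicate 1, and 444 and 227 nt in replicate 2. The last 250 nt of the coding sequence, a window taken for the region known as the coding region instability determinant and as a binding site of IGF2BP proteins, lay wholly inside the peak in both lists. The rest of the 3′UTR held no summit in either list.

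A weaker peak of MYC lay in the coding sequence of exon 2 in both lists, at 2.27-fold in replicate 1 (chr8:127738337-127738952) and 1.89-fold in replicate 2 (chr8:127738415-127738883). The summits fell in codons 109 and 117. Replicate 1 had a further peak in the 5′UTR of exon 1 (chr8:127736250-127736423) at 2.08-fold that was absent from the other list. The order exon 3 above exon 2 was the same in both replicates.

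MYC joined low folds to high counts. The peak at the stop codon rested on 189 IP fragments in replicate 1 (interval 163 to 218) over a background of 35, and on 210 (183 to 240) over 42.2 in replicate 2. Its −log10 q, 46.7 and 60.4, was the highest of all member peaks in each list. By fold, however, it stood at percentile 35.7 and 45.8 of all exonic peaks. The exon 2 peak had 193 fragments over 70 and 198 over 97, at percentiles 4.47 and 1.83. The low folds of MYC thus stood beside the highest pile-ups of all member peaks, over backgrounds above the exonic medians of 5 and 8.

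MYC mRNA held 15 GGAC, of which 7 lay under peaks in both lists. Within 50 nt of the stop codon peak's summit, replicate 1 had 1 GGAC, part of a GGACT, and replicate 2 had 0, since its summit lay 46 bp further on. No GGAC lay within 50 nt of the exon 2 summits or of the exon 1 summit, while a DRACH match lay near every summit of MYC.

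MYCN (chr2:15940550-15947007, plus strand), the paralog known from neuroblastoma, had shared peaks in exons 2 and 3, as MYC did. In exon 2 the coding sequence carried a peak of 12.4-fold in replicate 1 (chr2:15941951-15942451) and 12.5-fold in replicate 2 (chr2:15941976-15942501). In exon 3 the end of the coding sequence carried one of 9.14-fold, with the summit at −82 nt, and 6.86-fold, at −119 nt. By fold enrichment the exon 2 peak of MYCN was the stronger in both lists, the reverse of MYC.

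The folds of MYCN rested on few fragments. Exon 2 had 21 in each list (interval 13 to 32.1) over backgrounds of 0.491 and 0.642. Exon 3 had 22 and 21 over backgrounds of 1.11 and 2. The peaks of exons 2 and 3 thus had nearly equal pile-ups and differed in background. The exon 2 backgrounds were the lowest that each list allowed. A second peak in exon 2, at 4.57-fold with 7 fragments (2.81 to 14.4), was found in replicate 1 only. The replicate 1 summit of the strong peak also lay in an exon of the antisense gene MYCNOS, and the lists carry no strand, so fragments from either gene could not be told apart.

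MYCL (chr1:39895428-39902256, minus strand), the paralog first found in small-cell lung cancer, also had a peak in the coding sequence of exon 2 and one across the end of the coding sequence in exon 3. The former had 5.02 in replicate 1 and 5.61 in replicate 2. The latter had 13.9 (chr1:39896648-39897724) and 10.7 (chr1:39896802-39897666), percentiles 96 and 95, on 28 and 25 fragments. As in MYC, its summits fell on either side of the stop codon, 52 nt past it in replicate 1 and at −50 nt in replicate 2.

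MYCL had another shared peak, 1285 and 1271 nt into the 3′UTR, at 8.63-fold and 6.86-fold, with a GGACT near both summits. MYC, with a 3′UTR of 1996 nt, had no peak that deep, and the 3′UTR of MYCN, at 910 nt, is shorter than that. Replicate 1 alone had 2 small peaks in MYCL, at 6.24-fold on 10 fragments in the 5′UTR of the canonical transcript and at 4.01-fold on 6 fragments at the start of exon 3, where the antisense gene MYCL-AS1 also has an exon. All 3 MYC family genes thus had a peak in exon 2 and a peak at the end of the coding sequence in both lists. Their order by fold enrichment differed between the genes. MNT and MGA, described below, also had both of these peaks in both lists, so the arrangement was not particular to the MYC family.

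**Figure D2:**
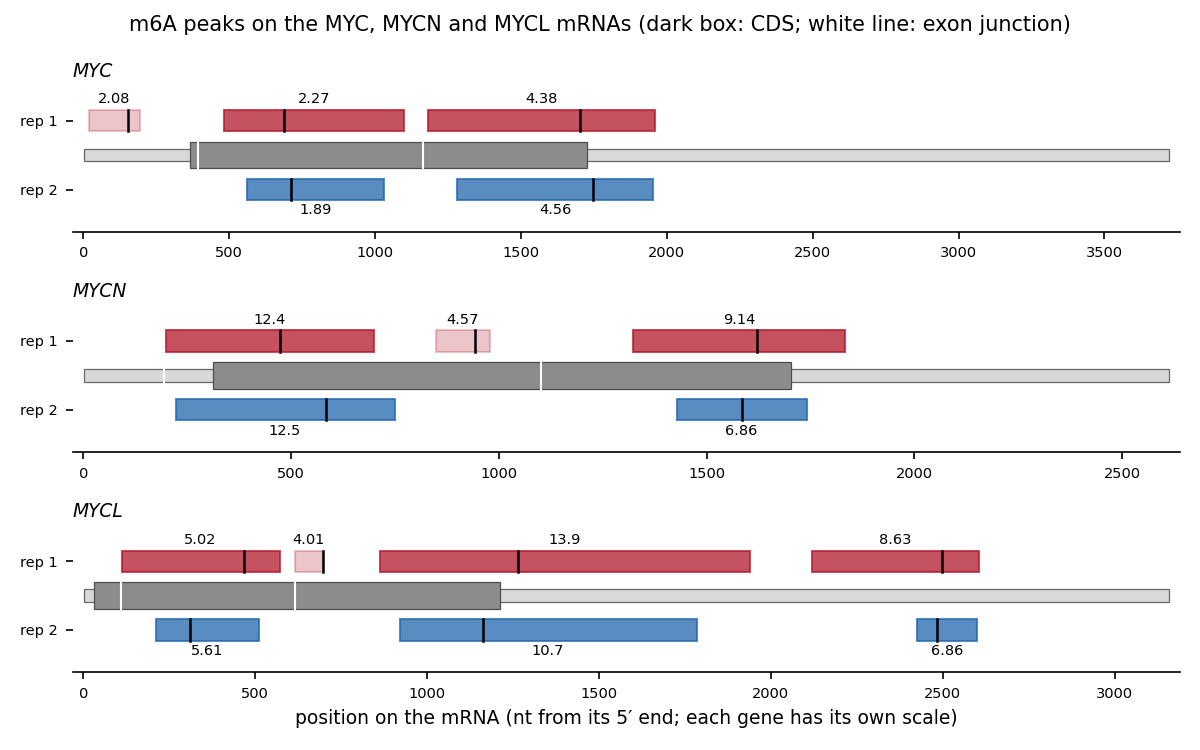
Peaks on the mRNAs of MYC, MYCN and MYCL, with position in nt from the 5′ end on the horizontal axis (a scale for each gene), replicate 1 above (red) and replicate 2 below (blue) the transcript, and the fold enrichment beside each peak. Dark boxes are coding sequence, white lines exon junctions, black bars summits and pale boxes peaks found in that list only; in each gene a shared peak spans or adjoins the end of the coding sequence, with 4.38 and 4.56 for MYC.

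**Figure D3:**
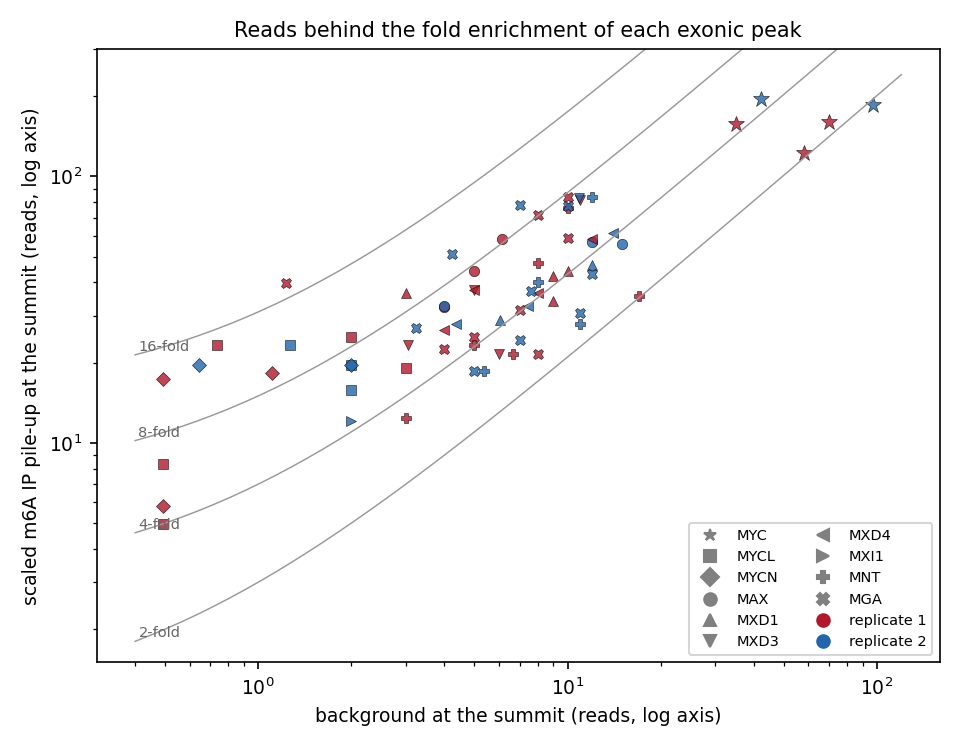
Scaled IP pile-up (vertical, log axis) against the caller's background (horizontal, log axis) at the summit of every exonic peak of the 10 genes, in fragments, with marker shape for the gene, colour for the replicate and grey lines of equal fold enrichment. The stars of MYC lie far to the upper right, with backgrounds of 35 to 97, while the diamonds and squares of MYCN and MYCL lie at the left, with backgrounds of 3 or less.

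MAX (chr14:65006174-65102695, minus strand), the common partner of all the others, had a peak across the end of the coding sequence, its strongest in replicate 1 but not in replicate 2. In replicate 1 it was 1 wide peak (chr14:65075946-65076602) of 8.26-fold with the summit at −37 nt from the stop codon. In replicate 2 the same stretch held 2 peaks, one of 4.45-fold (chr14:65076426-65076603) at −20 nt and one of 3.56-fold (chr14:65075993-65076193) at 359 nt into the 3′UTR. The pile-up differed little, with 70 fragments in replicate 1 against 61 and 60 in replicate 2, while the background was 6.15 against 12 and 15.

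A second shared peak of MAX, at 6.67-fold and 6.72-fold, lay in an exon of other MAX transcripts that overlaps exons of FNTB and CHURC1-FNTB on the opposite strand, so its gene is uncertain. Replicate 1 also had a peak of 7.50-fold in the 5′UTR of exon 1 on 53 fragments (39.7 to 69.3), which had no counterpart in replicate 2.

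Among the MXD repressors, MXD1 (chr2:69897688-69942945, plus strand), which rises during differentiation, had 2 shared peaks, both in its last exon. The one at the end of the coding sequence had 4.33 in replicate 1 at −128 nt and 3.66 in replicate 2 at −146 nt. The one deep in the 3′UTR, 2122 and 2060 nt past the stop codon, had 9.38 and 4.23. The replicates were alike for the first and unlike for the second, where 44 fragments over a background of 3 stood against 31 over 6.06. Peaks of 4.09-fold in exon 5 and 3.50-fold in the 3′UTR were found in replicate 1 only.

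MXD4 (chr4:2247432-2262109, minus strand) had the same arrangement, with a peak at the end of the coding sequence and one in the 3′UTR. The first had 4.54 and 4.17 with summits at −26 and −25 nt, on 70 and 66 fragments. The second had 6.39 and 3.97 with both summits 604 nt into the 3′UTR. A shared peak of 5.51-fold and 5.39-fold lay in an exon of another transcript, and replicate 1 alone had a peak of 4.17-fold in exon 5.

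MXD3 (chr5:177301461-177312757, minus strand), a member expressed in proliferating cells, had 1 shared peak, in its last exon, with 6.86 in replicate 1 and 7.04 in replicate 2 and the same summit base in both (177307554). It was among the best covered of the member peaks, with 98 and 89 fragments over 11 and 10.9. On the transcript with the longest coding sequence the summit lay at −433 nt, whereas on the canonical transcript it lay 36 nt into the 3′UTR. Replicate 1 had 3 more peaks, in exons 1, 2 and 4, at 6.39, 5.96 and 3.22, and none of them was in replicate 2.

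MXI1 (chr10:110207605-110287365, plus strand), also named MXD2, had no peak in replicate 1. In replicate 2 it had 1 peak (chr10:110207719-110207929) in exon 1 at 4.37-fold, on 13 fragments (6.92 to 22.2) over a background of 2, with a −log10 q of 3.90. It was the only member with no peak in the last exon in either list.

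MNT (chr17:2384073-2401104, minus strand), a broadly expressed antagonist of MYC, had its strongest peak in the last exon, across the stop codon. It had 7.03 in replicate 1 (chr17:2386401-2387649) and 6.54 in replicate 2 (chr17:2386457-2387522), on 92 and 90 fragments, with summits 284 and 280 nt into the 3′UTR. These summits lay in an exon of the gene ENSG00000262456 as well. Shared peaks also lay in the coding sequence of exon 2, at 5.37-fold and 4.56-fold, and further into the 3′UTR, at 2.95-fold and 3.09-fold with summits 170 bp apart. Replicate 1 alone had peaks of 4.04-fold, 3.36-fold and 2.04-fold, and replicate 2 alone one of 2.41-fold. These unshared peaks were weaker than the exon 2 peak and the strongest exon 6 peak of MNT in either list, while 4.04 and 3.36 were above its weaker shared 3′UTR peak.

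MGA (chr15:41621134-41773081, plus strand), the largest member, which binds MAX and also a T-box site as part of a Polycomb complex, carried 8 exonic peaks in the replicate 1 list and 9 in the other. Its 24 exons make an mRNA of 12193 nt with 3114 codons. Its strongest peak was in exon 17, which is 1505 nt long. It was 18.3 in replicate 1 (chr15:41749205-41750621, percentile 98.9) and 9.99 in replicate 2 (chr15:41749759-41750430), with summits 12 bp apart. In replicate 1 this was the highest fold of any member peak, and in replicate 2 the strongest peaks of MYCN (12.5) and MYCL (10.7) were above it. The pile-ups were 48 (35.4 to 63.6) and 55 (41.4 to 71.6) fragments, whose intervals overlapped, and the backgrounds were 1.23 and 4.23. Replicate 2 had a further peak of 4.44-fold in exon 17 (chr15:41749277-41749490), within the stretch of the wide replicate 1 peak.

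At the end of the coding sequence of MGA, in exon 24, a peak of 1600 bp in replicate 1 and 1441 bp in replicate 2 had 7.71 and 9.91, with summits at −85 and −82 nt from the stop codon. In exon 2 the values were 8.04 and 7.12. Exon 3 held 2 shared peaks, of 4.31 and 2.65 and of 5.45 and 3.37, and exon 15 held one of 4.68 and 3.27. Exon 13 went the other way, with 2.51 in replicate 1 and 6.60 in replicate 2. Replicate 1 alone had a peak of 4.07-fold in exon 9, and replicate 2 alone one of 3.15-fold in exon 8.

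**Figure D4:**
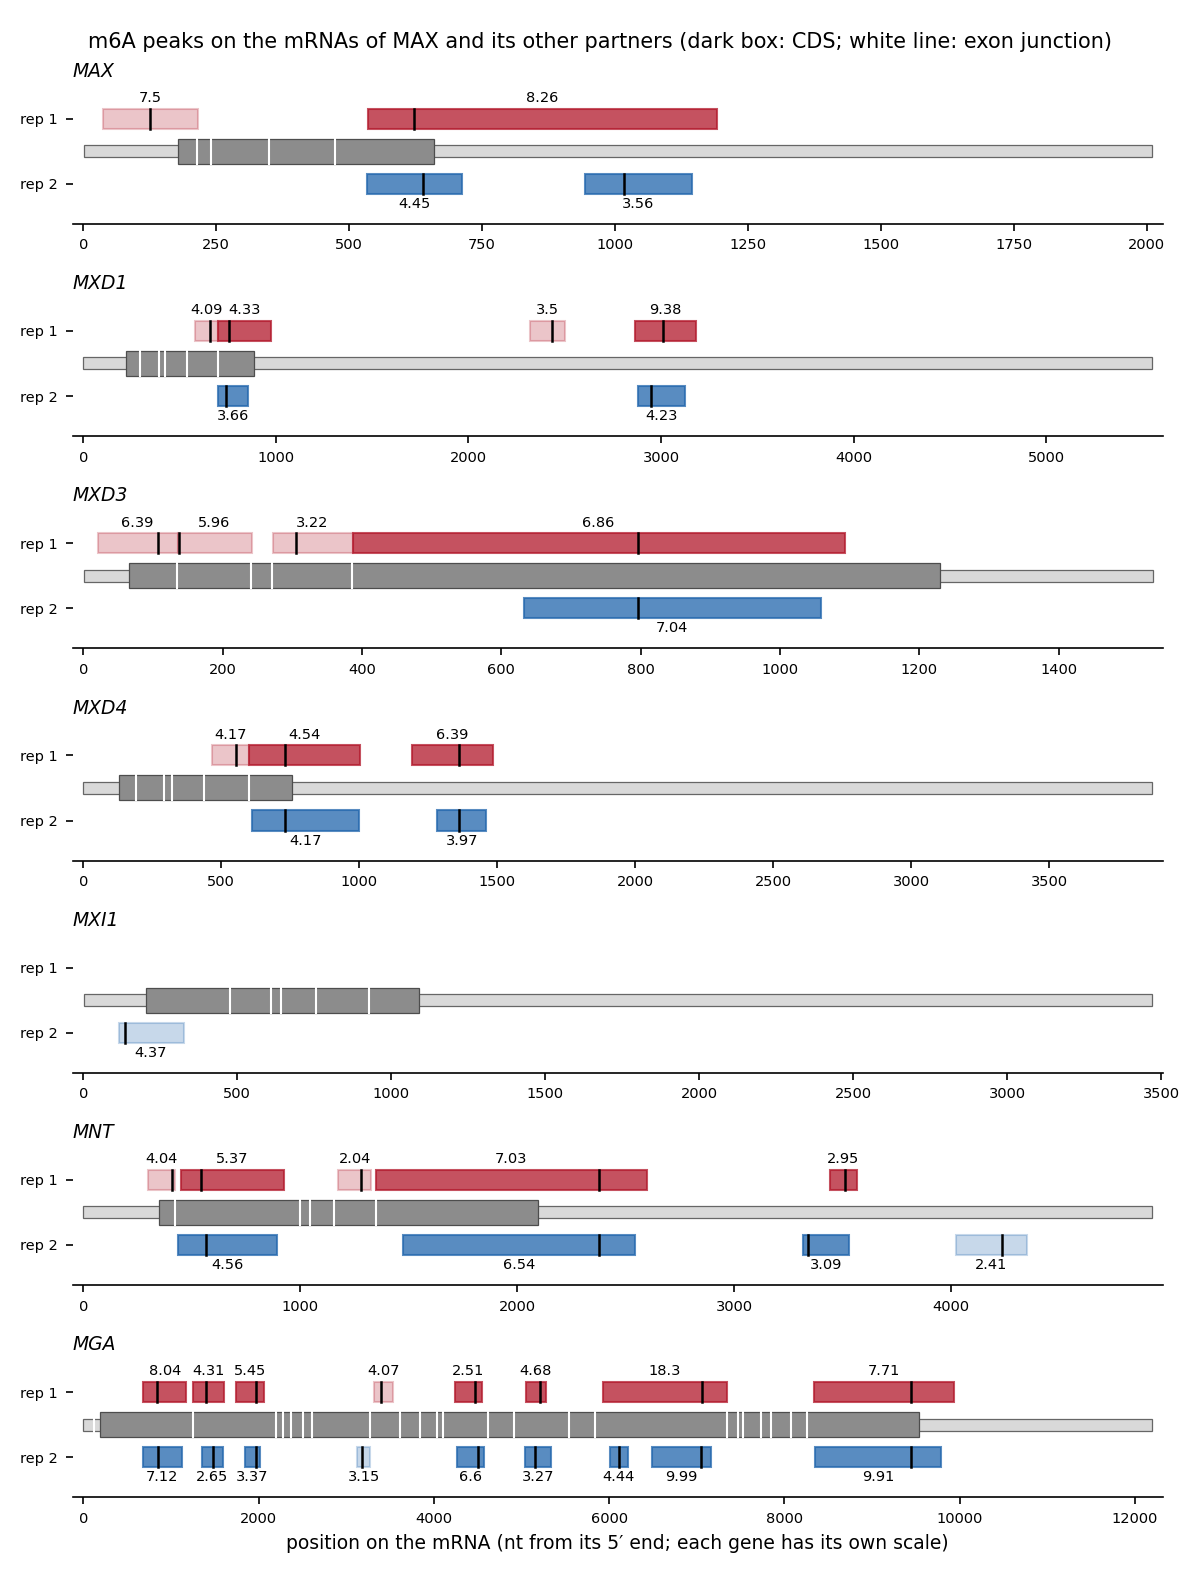
Peaks on the mRNAs of MAX, MXD1, MXD3, MXD4, MXI1, MNT and MGA, drawn as for the MYC family: position in nt from the 5′ end, replicate 1 above in red and replicate 2 below in blue, fold enrichment beside each peak, pale boxes for peaks found in that list only. Peaks in exons of other transcripts are left out; most shared peaks sit in the last exon or, in MGA, in long coding exons, and the short exons of MXD3 carry peaks in replicate 1 only.

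The position of the peaks was then compared with all genes. Of the members' summits on the transcript with the longest coding sequence, 7 of 36 in replicate 1 (19.4%, 95% Wilson interval 9.75% to 35.0%) and 7 of 28 in replicate 2 (25%, 12.7% to 43.4%) lay within 200 nt of the stop codon. Over all protein-coding genes the shares were 24.6% and 27.2%, inside both intervals. The 7 summits came from MYC, MYCN, MYCL, MAX, MXD1, MXD4 and MGA in each list, 1 per gene. On canonical transcripts MXD3 joined them, with 8 of 37 and 8 of 28. On the transcript with the longest coding sequence, the coding sequence held 27 and 19 of the members' summits (75% and 67.9%). Over all protein-coding genes it held 62.0% and 61.7%. The 3′UTR held 7 and 8 (19.4% and 28.6%, against 29.3% and 32.9%), and the 5′UTR 2 and 1 (5.56% and 3.57%, against 8.69% and 5.42%). These differences were not tested.

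Sharing was also near that of all exonic peaks. In replicate 1, 25 of 40 exonic member peaks (62.5%, interval 47.0% to 75.8%) overlapped a peak of the other list, against 60.2% of all exonic peaks. In replicate 2 it was 27 of 30 (90.0%, 74.4% to 96.5%), against 95%.

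Which peaks were shared went with the length of the exon. Of the member exons over 400 nt, 18 of 22 held a summit in both lists, and of the 45 exons of 400 nt or less 0 did. The 9 member summits in shorter exons, in MYC, MAX, MXD1, MXD3, MXD4, MNT and MGA, were all in replicate 1 and all unshared. Over protein-coding genes with a peak in both lists, 68.6% of longer and 1.42% of shorter exons held a summit in both, so the members followed the pattern of those genes. The member counts also include MXI1, which had no peak in both lists, with 2 longer and 4 shorter exons.

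In replicate 1, 27 of 36 member summits lay in exons over 400 nt, the same 75% as over all summits. All summits here means those placed on the longest-coding transcript of a single protein-coding gene. Of the 27, 23 were shared, where 72.9% of all such summits were. Of all summits in shorter exons 29.2% were shared. In replicate 2 all 28 member summits lay in exons over 400 nt, against 88.9% of all, and 25 of them were shared, against 96.9%. Of the 1154 summits that replicate 2 had in shorter exons over all genes 90.4% were shared, and 0 of them belonged to a member.

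Motifs near the summits were counted on the strand of the gene, and overlapping motifs were each counted. GGAC lay within 50 nt of 19 of 40 exonic member summits in replicate 1 (47.5%, interval 32.9% to 62.5%) and 16 of 30 in replicate 2 (53.3%, 36.1% to 69.8%). Over all summits in exons of a single protein-coding gene, 17614 in replicate 1 and 11462 in replicate 2, it was 50% and 52%, inside the intervals. The shares of all summits below are over this set, while the member counts also include summits in exons of several genes. GGACT, which contains GGAC, lay near 27.5% and 26.7% of member summits, against 17.7% and 19.2% of all, with intervals of 16.1% to 42.8% and 14.2% to 44.4%. DRACH, which any GGAC followed by A, C or T also meets, lay near 87.5% and 73.3%, against 85.8% and 89.1%. The replicate 2 interval, 55.6% to 85.8%, ended below the share of all summits, while the replicate 1 share was above it. That interval was among several compared and counts peaks of the same gene as separate, and the difference was not tested. The reverse complement GTCC, a reading of GGAC on the other strand, lay near 32.5% and 36.7%, against 31.2% and 29.4%.

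Over the mRNAs as a whole, the 10 transcripts held 174 GGAC in 43044 nt. The peaks covered 35.9% of the nt in replicate 1 and 45.4% of the GGAC (79), and in replicate 2 26.2% of the nt and 36.2% of the GGAC (63). In both lists 55 GGAC lay under a peak. The same shares over the mRNAs of all genes are not given here. The higher share of GGAC than of nt is therefore not shown to be particular to the members. MXD3 had all 11 of its GGAC under peaks in replicate 1 and 6 in replicate 2, with 67.9% and 27.8% of its nt covered. MXD1 had 7 and 3 of 15, with only 16.1% and 7.21% of its nt covered. MXI1 had 0 and 2 of 12, with 0% and 6.08% covered.

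The replicates were compared over the 25 pairs of exonic member peaks in which each overlapped the other more than any further peak. Fold enrichment was higher in replicate 1 in 17 of 25 pairs (68.0%), against 80.0% of 11741 exonic pairs of all genes, and the median log2 ratio was 0.23 against 0.43. The summits of a pair were a median of 28 bp apart, against 26 bp. The members that departed most were exon 13 of MGA, with a log2 ratio of −1.40 at percentile 0.149 of all pairs, MAX at 1.22 (percentile 92.7), the 3′UTR peak of MXD1 at 1.15 (percentile 91.0) and exon 24 of MGA at −0.36 (percentile 7.57). The MAX pair joined summits 396 bp apart, whereas the other replicate 2 peak there, at 4.45-fold, had its summit 17 bp away. MYC lay at 0.26 for exon 2 and −0.06 for the stop codon peak.

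The fold ratios were spread more widely than the pile-up ratios. After the caller's scaling, the log2 ratio of the pile-up lay between −0.36 and 0.46 in the 25 pairs, and 0 of them differed by more than 0.5 either way. The ratio of the background ran from −1.78 to 1.3, with 10 of 25 pairs past 0.5, and the ratio of the fold enrichment from −1.40 to 1.22, with 8 past it. Counts of this kind over the exonic pairs of all genes are not given here. The pattern is therefore not shown to be particular to the members. In exon 13 of MGA the background was 8 in replicate 1 and 3.24 in replicate 2, with 26 and 29 fragments.

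**Figure D5:**
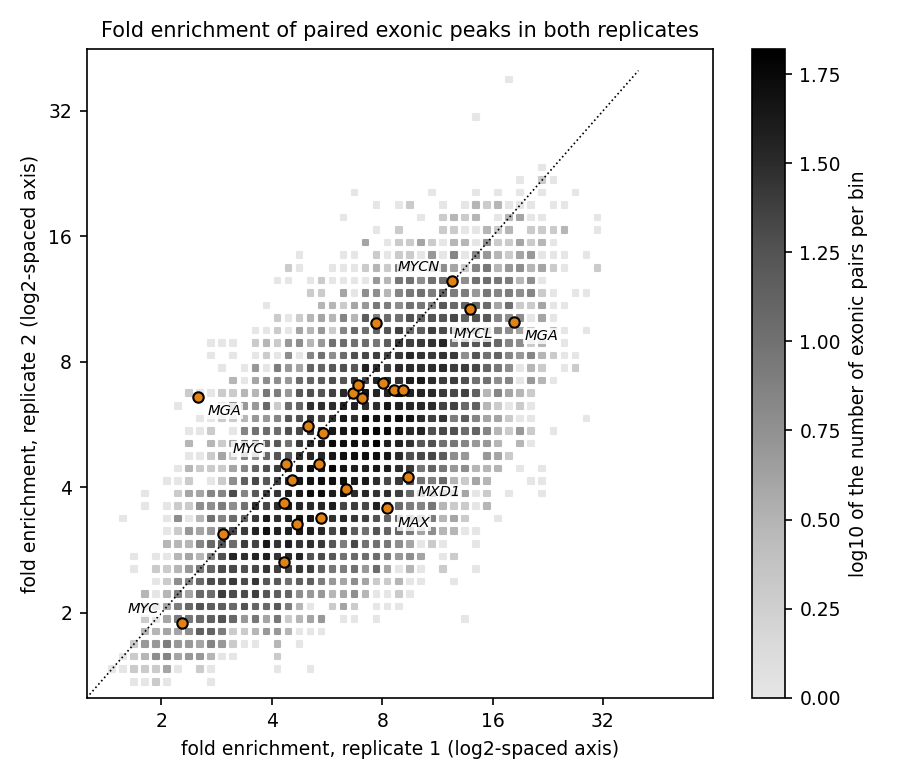
Fold enrichment in replicate 2 against replicate 1 (log2-spaced axes) for pairs of exonic peaks, with all 11741 pairs as grey bins (darker for more pairs) and the 25 member pairs as orange points. The dotted line marks equal values; most members lie below it, 17 of 25 being higher in replicate 1, and exon 13 of MGA stands far above it at 2.51 and 6.60.

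Other genes of the MYC pathway were counted from a list of 45, of which 22 (48.9%) had an exonic peak in both lists, 24 in each list, and 19 in neither. The list holds 2 noncoding RNAs, and over all protein-coding genes 33.4% had a peak in both. Of 8 coactivators 5 did, among them EP400, a chromatin remodelling subunit (8.87 and 10.1). Of 5 corepressors 3 did, among them SIN3A, the scaffold that the MXD proteins bind (10.1 and 6.48). MIZ1, encoded by ZBTB17, 2 of 3 Mondo branch genes and 2 of 5 partners of MGA in its Polycomb complex did so too.

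Genes of MYC protein turnover had one in 4 of 8, and FBXW7, the ubiquitin ligase subunit that recognises phosphorylated MYC, had the highest value of the list, 22.2 in replicate 1 and 17 in replicate 2. CIP2A and USP28 had no exonic peak in either list. Of 10 classical MYC targets 2 (20%) had a peak in both, where 33.4% of all protein-coding genes did, and the difference was not tested. They were TERT, the catalytic subunit of telomerase (11.8 and 8.01), and NCL, which encodes nucleolin (2.61 and 2.10, in an exon outside the transcript with the longest coding sequence). The other 8, CAD, CCND2, CDK4, EIF4E, LDHA, NPM1, ODC1 and TFRC, had none in either list.

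Nor did RUVBL1, RUVBL2, HDAC1, HDAC2, PCGF6 and RNF2, which encode subunits of coactivator, corepressor and Polycomb complexes. Of the m6A readers that bind MYC mRNA, IGF2BP2 had 9.28 and 10.6 and IGF2BP3 6.41 and 10.2, and IGF2BP1 had none. These peaks of IGF2BP2 and IGF2BP3 lay outside the transcript with the longest coding sequence, in exons of other transcripts. Beside the MYC gene, the long noncoding RNA PVT1 had a peak of 5.58-fold and 4.46-fold and CASC11 had none.

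Among 505 protein-coding genes with the same numbers of exonic summits as MYC, 3 and 2, the genes whose strongest peaks were nearest to its values over the 2 lists were PNISR (4.43 and 4.36), POTEF (4.59 and 4.54), OGFOD2 (4.48 and 4.96), ARGLU1 (4.07 and 4.35) and SAMD1 (4.27 and 5.01). Their Euclidean distances from MYC in log2 fold enrichment were 0.07, 0.07, 0.13, 0.13 and 0.14. POTEF belongs to a family of near-identical copies, so its reads are uncertain.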

How the data were processed

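The authors sequenced meRIP libraries of OE-19 cells as paired-end reads, mapped them to hg38 and called peaks with MACS2 per sample. The mapper is TopHat2 in the study's methods, whereas the submitters' processing notes name fastp and HISAT2; releases are not given in the sources used here. The deposited lists hold, per peak, a fold enrichment (a ratio over the caller's background), −log10 p-value, −log10 q-value, a score (not used) and the summit. The highest q was 0.0491 and 0.0497. Whether the input served as control is not stated. The IP scaling, with factors below 1, is that of a caller given a control library.

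Genes came from GENCODE version 44, and positions are 1-based. The transcript with the longest coding sequence was used. Peaks were shared when they overlapped by 1 bp or more. IP fragments and background were solved from the fold enrichment and p-value, with a tolerance of 0.002 in −log10 p, and 99.4% and 99.7% of peaks had a single solution. The scripts were tested on simulated data. Members, lists and comparisons were chosen with earlier results of these data known. The text names all members, the 5 pathway genes of highest geometric mean fold and those with no peak, the IGF2BP genes, PVT1 and CASC11, the markers, and the 5 genes nearest to MYC; 1 listed gene is not reported here by name. Alternatives were stricter q and fold, other overlap rules, windows, midpoints, gene assignment, canonical transcripts, and each replicate alone. Software was Python 3.11.15 with matplotlib 3.10.9, numpy 2.4.6, pandas 2.3.3, pysam 0.24.0, scipy 1.17.1 and statsmodels 0.14.6.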

Additional observations from a re-analysis of the deposited data

How the results depend on the processing

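Of 59 recomputed values, 49 stayed within their error or within 1.5 times the reported count and 10 moved. At q of 1e-05 or less the median fold enrichment of the member peaks rose from 5.19 to 5.96 in replicate 1 and from 4.5 to 5.50 in replicate 2. At a fold enrichment of 5 or more, 10 pathway genes had a peak in both lists where 22 did before. GGAC then lay near 66.7% of the members' summits in replicate 1 (14 of 21) and 53.8% in replicate 2 (7 of 13). The share of all summits at this limit is not given here. The members left with a peak in both lists numbered 7, MYC and MXD1 being lost. In replicate 2, MAX and MXD4 passed this fold limit only through peaks of 6.72-fold and 5.39-fold in exons of other transcripts. At q of 1e-05 or less 9 members were left. Sharing in replicate 2 fell to 66.7% when 50% of both peaks had to overlap and to 70.0% for summits within 100 bp. GGAC was near 22.5% and 26.7% of summits with a window of 25 nt and near 77.5% and 80.0% with 100 nt. In each of these the alternative keeps fewer peaks or searches other lengths by its own construction. With either replicate left out, the members with an exonic peak numbered 9 to 10 and the pathway genes 24 (24 in each), the stop codon share was 19.4% to 25% and the GGAC share 47.5% to 53.3%. No paired analysis was possible because no peak list of the inputs was analysed, which leaves 1 group and no test. With 2 replicates and 40 and 31 peaks, counts set the precision, and the lists show neither expression nor the share of molecules modified.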
